A study of Homo sapiens with 12 samples.

Results

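SEMG1 and SEMG2 encode semenogelin 1 and semenogelin 2, and their reads were followed across the 12 polyA RNA-seq libraries of a study of PI3K and EZH2 inhibition in prostate cancer cells. The pair was taken by gene symbol, 2 of the 23228 genes counted, and it was chosen because its counts were near 0 with vehicle and high in some treated libraries, so its own counts are given as a description with no test. All cells were C4.2B, a human cell line that models castration-resistant prostate cancer, grown in ordinary serum and moved to 10% charcoal-stripped serum, which is low in steroid hormones, when the 24 h of dosing began. Of the 4 arms, each with libraries A, B and C, DMSO received vehicle and GDC received 0.5 µM of GDC-0941, which inhibits PI3K. GSK received 5 µM of GSK126, which inhibits EZH2, and COMBO received both compounds at those doses. GSK and COMBO cells had 6 days of GSK126 before that, in ordinary serum. The length of exposure therefore differs between the agents, and agent and exposure time cannot be told apart. EZH2 is the catalytic subunit of PRC2, the complex that places the repressive trimethyl mark on histone H3. All libraries come from 1 cell line. The methods describe triplicate plates seeded the day before dosing, after the pretreatment, so the replicates of an arm may share a culture up to that point, and a p-value here measures the spread between such plates, which may be technical.

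Semenogelins are the main proteins of the gel that forms in fresh semen. They are secreted mostly by the seminal vesicle, are crosslinked by the prostatic transglutaminase TGM4, and bind fibronectin and the sperm-coat protein EPPIN. The gel liquefies when prostatic kallikreins, above all KLK3 (prostate-specific antigen), cut the semenogelins. The prostate makes the enzymes and the seminal vesicle makes the substrate, so semenogelins are not typical products of prostate luminal cells.

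The 2 genes lie side by side on the plus strand of chromosome 20. On hg38 with the GENCODE 44 annotation, SEMG1 spans chr20:45207033-45209768 and SEMG2 spans chr20:45221373-45224458, with 11.604 kb between them. Each has 3 exons, of which exon 2 carries nearly all the coding sequence: 1357 of 1622 transcript bases lie in it for SEMG1 and 1717 of 1978 for SEMG2. The coding sequences have 462 codons in SEMG1 and 582 in SEMG2. The 2 transcripts were identical at 88.8% of aligned bases (1436 identical, 182 different, 364 in gaps), and the coding sequences at 89.5%.

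The windows around the 2 transcription starts are shown because both genes were high in the same libraries. Each runs from 250 bases before the start to 50 bases from it, 5′ to 3′ on the plus strand, from RefSeq on GRCh38.p14, and both symbols matched. They are chr20:45206783-45207082 for SEMG1 and chr20:45221123-45221422 for SEMG2. Capitals mark the TATA box letters TATAAA and the start codon.
SEMG1 promoter: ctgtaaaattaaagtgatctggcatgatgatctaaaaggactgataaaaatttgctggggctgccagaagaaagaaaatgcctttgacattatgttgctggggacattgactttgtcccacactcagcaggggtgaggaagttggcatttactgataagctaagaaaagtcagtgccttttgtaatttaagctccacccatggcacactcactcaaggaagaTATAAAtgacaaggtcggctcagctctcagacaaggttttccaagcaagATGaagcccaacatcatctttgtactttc
SEMG2 promoter: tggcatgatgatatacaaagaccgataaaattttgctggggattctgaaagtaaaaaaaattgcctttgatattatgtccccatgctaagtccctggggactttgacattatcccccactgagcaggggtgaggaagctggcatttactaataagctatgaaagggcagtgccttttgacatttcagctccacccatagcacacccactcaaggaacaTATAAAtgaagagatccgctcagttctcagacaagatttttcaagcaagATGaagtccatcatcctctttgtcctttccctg
The windows were identical at 85.8% of aligned bases, with 241 identical, 40 different and 38 in gaps. The TATAAA begins 28 bases before the start in SEMG1 and 32 bases before it in SEMG2. On either strand, TATAAA was found in 11.5% of the 35116 RefSeq promoter windows of this length. AGAACA, a hexamer recognised by the androgen receptor, was in neither window and in 14.8% of all. TGTTTAC, a FOXO core, was in neither and in 3.42% of all. AGATAA, recognised by factors of the GATA family, was in neither and in 10.3% of all. Only these exact letters were searched on either strand. Other forms of such sites, for example TGATAA in the printed SEMG1 window, were not counted. The 4 motifs have no match that overlaps another in these windows. Such matches are a description of the letters and not of bound factors.

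Because the genes are paralogs, reads could be counted for the wrong one, or dropped as not unique. The longest stretch that the 2 annotated transcripts share is 66 bases in the coding part of exon 2. It is printed in capitals with 17 bases on each side, chr20:45207889-45207988 for SEMG1 and chr20:45222224-45222323 for SEMG2 (hg38, plus strand).
SEMG1 exon 2: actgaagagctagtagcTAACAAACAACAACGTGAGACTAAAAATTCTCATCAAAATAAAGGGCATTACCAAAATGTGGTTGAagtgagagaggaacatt
SEMG2 exon 2: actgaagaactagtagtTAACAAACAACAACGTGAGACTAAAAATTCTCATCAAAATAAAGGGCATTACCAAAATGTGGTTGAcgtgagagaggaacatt
Of all 36-base windows, 113 of 1587 in SEMG1 (7.12%) and 113 of 1943 in SEMG2 (5.82%) occurred unchanged in the other gene. At 50 bases these were 31 of 1573 (1.97%) and 31 of 1929 (1.61%), and at 75 bases they were 0 of 1548 and 0 of 1904. No 36-base window of either gene occurred in any other GENCODE transcript. Most stretches of the 2 transcripts therefore differ somewhere within a window of this size, but the read length and the handling of reads that map to both are not given in the sources used here. The split between the 2 genes is uncertain to that extent.

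SEMG1 was close to silent with vehicle and with the PI3K inhibitor. Its counts were 2, 9 and 13 in DMSO A, B and C, and 2, 7 and 9 in GDC. They were 241, 315 and 283 in GSK and 172, 282 and 150 in COMBO. Gene counts per library ran from 8785218 to 44437751, and the library with 13 counts, DMSO C, was also the deepest, so the levels are compared as CPM, reads per library size after TMM scaling. On that scale SEMG1 stood at 0.210, 0.497 and 0.313 CPM in DMSO and at 0.177, 0.431 and 0.603 CPM in GDC, and the libraries of these arms overlapped. It stood at 26.5, 24.9 and 24.0 CPM in GSK and at 9.98, 12.5 and 10.9 CPM in COMBO. Every GSK library lay above every COMBO library, and both arms lay far above DMSO and GDC. Reads outside the counted genes also differed by arm, at 23.7% to 24.6% in DMSO, 25.7% to 26.2% in GDC, 28.8% to 29.7% in GSK and 31.5% to 33.7% in COMBO, and their part in these levels was not tested. The arm means of SEMG1 were 0.340 ± 0.145 CPM in DMSO and 0.404 ± 0.215 in GDC, against 25.1 ± 1.26 in GSK and 11.1 ± 1.28 in COMBO (SD, n = 3). In bulk RNA a small number of cells with many transcripts and many cells with few cannot be told apart, nor can fewer such cells and less RNA per cell.

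SEMG2 was lower still with vehicle. Its counts were 0, 1 and 3 in DMSO and 4, 5 and 4 in GDC, against 151, 165 and 168 in GSK and 165, 238 and 125 in COMBO. Its levels were 0, 0.0553 and 0.0722 CPM in DMSO and 0.353, 0.308 and 0.268 CPM in GDC. A count of 0 still allows 3 counts, which is 0.316 CPM in DMSO A, the shallowest vehicle library, so for that library the level is bounded, not measured, and the bound reaches the GDC values. In GSK the levels were 16.6, 13.03 and 14.2 CPM, and in COMBO 9.57, 10.6 and 9.09 CPM. The arms did not overlap in any pair, in the order DMSO, GDC, COMBO, GSK, except through the bound for DMSO A. The means were 0.0425 ± 0.0377 CPM in DMSO and 0.310 ± 0.0427 in GDC, against 14.6 ± 1.81 in GSK and 9.74 ± 0.744 in COMBO (SD, n = 3).

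**Figure D1:**
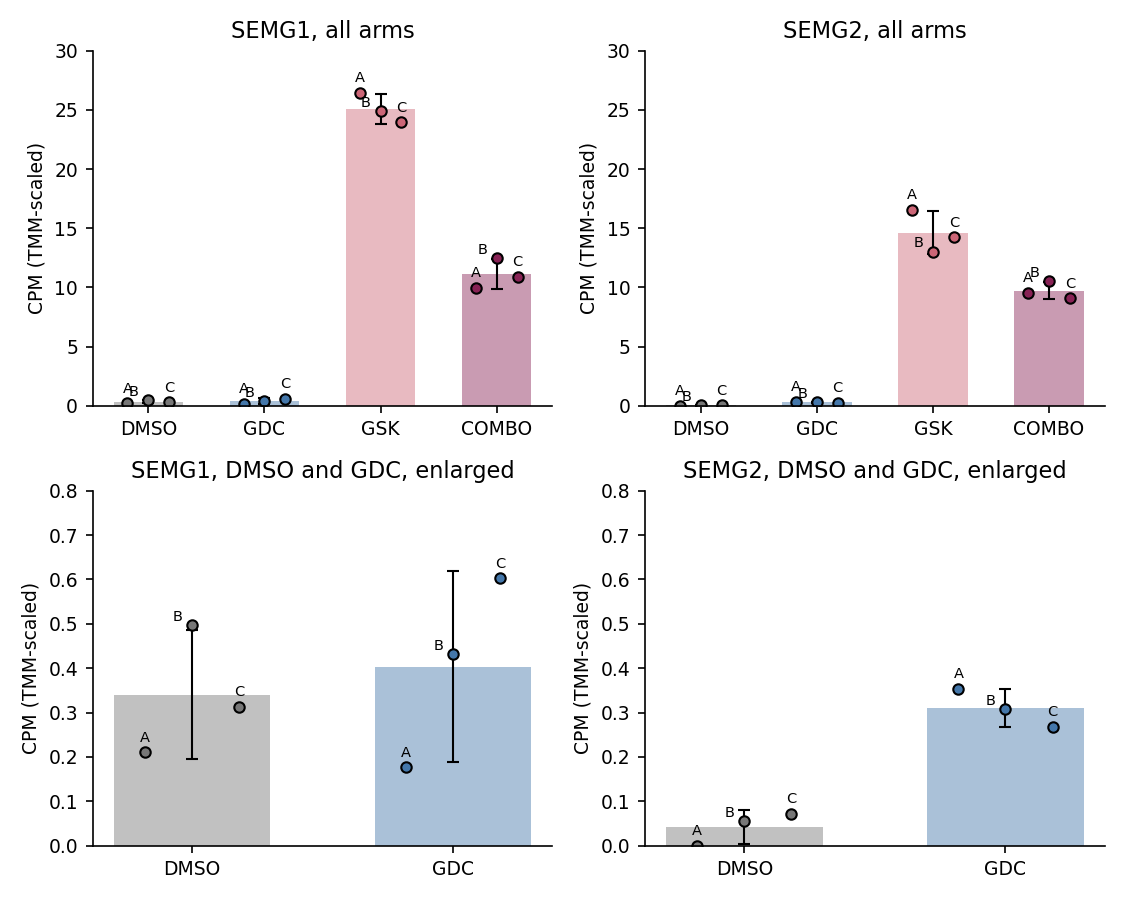
Level of SEMG1 (left) and SEMG2 (right) in CPM, scaled by TMM, in the 4 arms, with the DMSO and GDC arms enlarged in the lower row. Points are the libraries A, B and C, bars are arm means that start at 0 and error bars are the SD of 3 libraries; the GSK libraries lie at 24.0 to 26.5 CPM for SEMG1 and at 13.03 to 16.6 CPM for SEMG2, above every COMBO library.

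Per kb of annotated transcript, SEMG1 was the more abundant transcript in GSK and COMBO. In DMSO the levels per kb were 0.210 ± 0.0897 for SEMG1 and 0.0215 ± 0.0191 for SEMG2, and in GDC 0.249 ± 0.132 and 0.157 ± 0.0216 (mean CPM per kb, SD, n = 3), on at most 24 reads an arm. In GDC the libraries overlapped, and in GDC A SEMG2 was the higher, at 0.179 against 0.109. In GSK they were 15.5 ± 0.779 for SEMG1 and 7.39 ± 0.913 for SEMG2, and in COMBO 6.86 ± 0.788 and 4.92 ± 0.376 (SD, n = 3). The GSK and COMBO libraries of the 2 genes did not overlap on this scale: in GSK the lowest SEMG1 library stood at 14.8 and the highest SEMG2 library at 8.38, and in COMBO these were 6.15 and 5.34.

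To give the size of the difference with the few vehicle reads in view, counts were pooled per arm and their ratio taken with an exact 95% interval, which covers counting error only. SEMG1 had 24 pooled counts in DMSO and 18 in GDC, against 839 in GSK and 604 in COMBO. Its ratio to DMSO was 1.22 in GDC (0.625 to 2.35), and it was 72.0 in GSK (48.1 to 113) against 32.5 in COMBO (21.6 to 51.2). SEMG2 had 4 pooled counts in DMSO and 13 in GDC, against 484 in GSK and 528 in COMBO. Its ratio to DMSO was 5.29 in GDC (1.64 to 22.3), and it was 249 in GSK (96.7 to 919) against 171 in COMBO (66.2 to 628). The SEMG2 intervals are wide because the denominator is 4 reads.

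The 2 genes were closer to each other when COMBO was set against GDC, where the ratio was 26.6 for SEMG1 (16.7 to 45.2) and 32.2 for SEMG2 (18.7 to 60.9). When PI3K inhibition was added to EZH2 inhibition, both levels were lower than with GSK126 alone. The ratio of COMBO to GSK was 0.451 for SEMG1 (0.406 to 0.502) and 0.684 for SEMG2 (0.604 to 0.776). Replicates in these data differed by more than counting error, which these intervals do not cover.

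**Figure D2:**
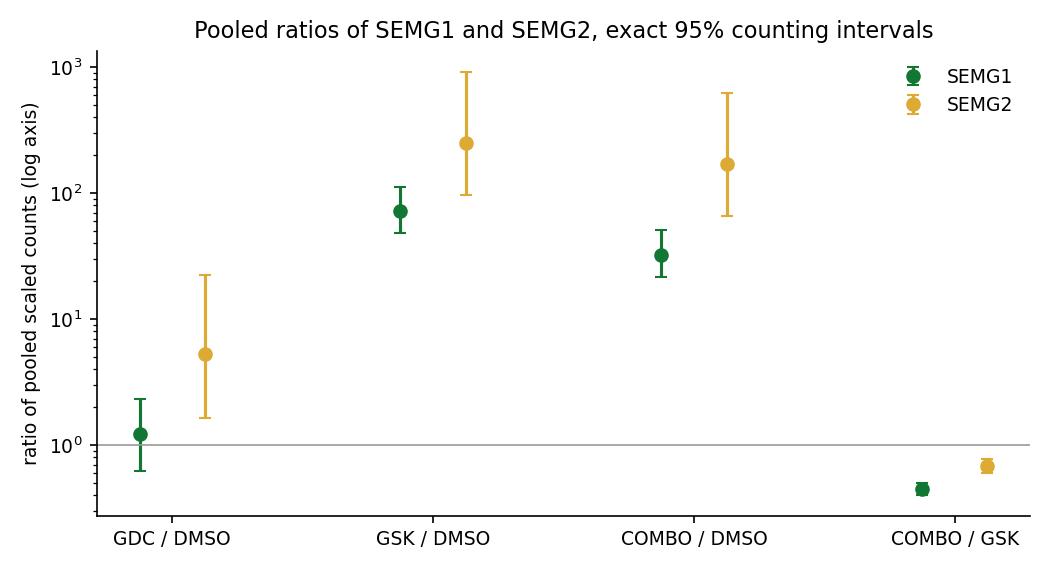
Ratio of pooled, TMM-scaled counts of SEMG1 and SEMG2 in 4 comparisons, on a log axis, with exact 95% counting intervals as error bars and a line at 1. The ratios to DMSO reach 72.0 (SEMG1) and 249 (SEMG2) in GSK, the GDC ratio of SEMG1 spans the line at 1.22, and both genes lie under the line in COMBO over GSK at 0.451 and 0.684.

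SEMG2 held a larger part of the reads of the pair in COMBO than in GSK. The SEMG2 share of the reads of both genes was 38.5% (151 of 392; 95% Wilson interval 33.8 to 43.4), 34.4% (165 of 480; 30.3 to 38.7) and 37.3% (168 of 451; 32.9 to 41.8) in GSK A, B and C. In COMBO it was 49.0% (165 of 337; 43.7 to 54.3), 45.8% (238 of 520; 41.5 to 50.1) and 45.5% (125 of 275; 39.7 to 51.4). Every COMBO library lay above every GSK library, at a mean of 46.7% ± 1.94 against 36.7% ± 2.12 (SD, n = 3). Per transcript length the means were 41.8% and 32.2%. In DMSO and GDC the share rests on few reads. It was 0 of 2, 1 of 10 (10.0%) and 3 of 16 (18.8%) in DMSO, which pooled to 14.3% (5.70 to 31.5). It was 4 of 6 (66.7%), 5 of 12 (41.7%) and 4 of 13 (30.8%) in GDC, which pooled to 41.9% (26.4 to 59.2). The interval for GDC takes in the pooled shares of both GSK (36.6%) and COMBO (46.6%), so at this depth its share could not be told from either.

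**Figure D3:**
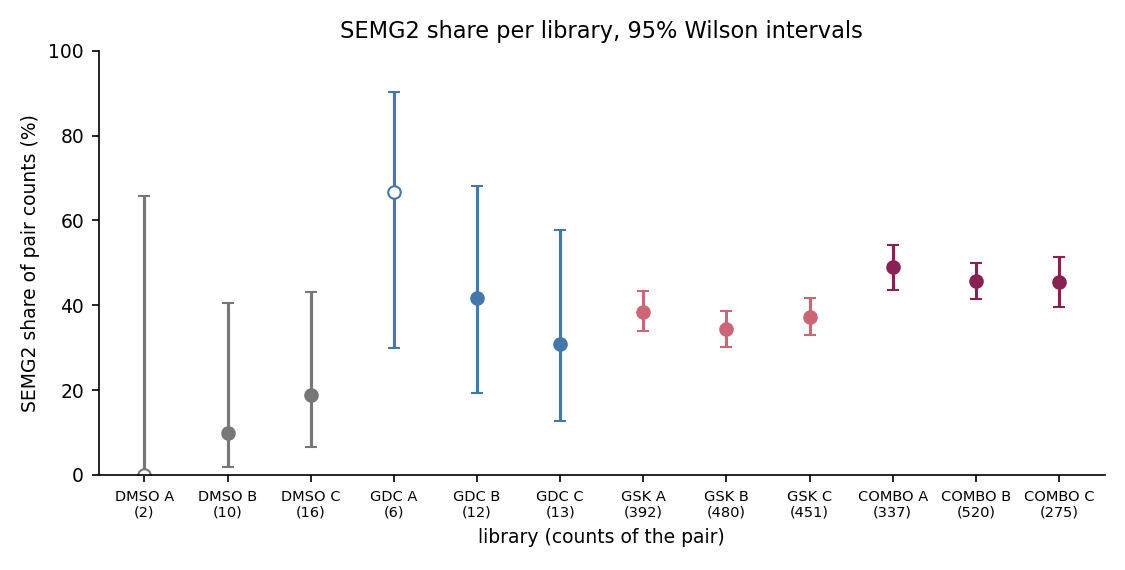
Share of SEMG2 in the reads of SEMG1 and SEMG2, in percent, for each of the 12 libraries, with 95% Wilson intervals and the number of reads under each name; open points have fewer than 10 reads. The COMBO libraries lie at 45.5% to 49.0% and the GSK libraries at 34.4% to 38.5%, while the DMSO and GDC intervals are wide.

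Both genes passed the filter on low counts, as each could through its GSK and COMBO libraries alone, and both were among the 14189 genes fitted. The fitted log2 fold changes give their place among all genes, again as a description of the values that chose them. With GSK126 alone SEMG2 ranked 1 and SEMG1 ranked 15 from the highest of the 14189. In COMBO against DMSO they ranked 3 and 58. In GDC against DMSO they ranked 18 and 3076, where the place of SEMG2 rests on 13 pooled reads in GDC against 4 in DMSO. In COMBO against GSK, counted from the lowest, SEMG1 ranked 187 and SEMG2 ranked 961.

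SEMG2 can also be set among all genes that vehicle cells left near silence. There were 8357 counted genes with at most 10 reads over the 3 DMSO libraries together. SEMG2, with 4, was inside this class and SEMG1, with 24, outside it. Of the 8357, 3598 had at least 1 read in GSK and 4194 in COMBO. Of these genes 45 (0.538%) reached 1 CPM in all 3 GSK libraries, 68 (0.814%) did so in COMBO, and 0 did so in GDC. SEMG2 stood first in the class in both GSK126 arms and at place 38 in GDC. In GSK the pooled level was 14.4 CPM for SEMG2, then 6.79 for GAB3, an adaptor of the GAB family, 4.59 for the protocadherin PCDHB5, 3.96 for ATP2A3, a calcium pump of the endoplasmic reticulum, and 3.57 for SCGN, a calcium-binding protein. In COMBO it was 9.86 CPM for SEMG2, 9.54 for GAB3, 7.81 for GLDN (gliomedin), 6.28 for PCDHB5 and 5.08 for OPRK1, the kappa opioid receptor. SEMG2 and GAB3 therefore lay close together in COMBO, with means of 9.74 ± 0.744 and 9.61 ± 0.966 CPM (SD, n = 3), and apart in GSK, where GAB3 stood at 6.69 ± 0.971 CPM.

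Genes with a like course over the libraries were ranked by Pearson's r of log2 CPM (prior count of 2) over the 12 libraries, which share their depths and fall into 4 arms, so no p is given. SEMG1 and SEMG2 had r = 0.975 with each other, and SEMG2 was at place 121 in the ranking for SEMG1 and SEMG1 at place 318 in that for SEMG2. Most like SEMG1 were the transcription factor ZIC2 (0.994), the disulfide isomerase AGR2 (0.993), the deacetylase SIRT2 (0.992), the transcription factor NFE2L1 (0.992) and the actin-binding peptide TMSB4X (0.992). Most like SEMG2 were the calpain CAPN1 (0.996), the tetraspanin CD82 (0.996), the lysosomal sialidase NEU1 (0.996), the peroxidasin PXDN (0.995) and C9orf7 (0.995). Such values are common here, as 547 genes exceeded r = 0.95 with SEMG1 and 1014 with SEMG2. The likeness is one of course and not of size. ZIC2 averaged 38.5 CPM in DMSO and 35.6 in GDC, against 107 in GSK and 86.1 in COMBO, and CAPN1 averaged 112, 144, 304 and 272 CPM. These expressed genes moved by far smaller ratios than the semenogelins. AGR2 averaged 23.7, 22.1, 70.9 and 52.6 CPM in the same order. Each gene named as most like SEMG1 averaged lower in COMBO than in GSK, as SEMG1 did. They were picked for likeness over these same libraries.

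Genes of proteins that act on or bind semenogelins, of protease inhibitors and of other seminal plasma proteins were then examined. They did not enter the choice of the pair and are together called partners below, although not all act on semenogelins. Tests were edgeR's quasi-likelihood test on all 12 libraries, with Benjamini-Hochberg adjustment over 14189 genes and a call at an adjusted p under 0.05. EZH2 itself, the target of GSK126, fell at the RNA level, from 101.5 to 106.9 CPM in DMSO to 76.4 to 89.6 in GDC, 55.7 to 57.1 in GSK and 34.3 to 35.8 in COMBO. Its log2 fold change against DMSO was -0.36 in GDC, -0.89 in GSK and -1.58 in COMBO (adjusted p = 3.50e-05, 2.44e-11 and 1.37e-15, edgeR). An inhibitor of the enzyme need not change its transcript, so this is no check of the labels.

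Of 54 semenogelin-related genes in 4 lists, all were counted and 24 had enough reads to be tested. In GDC 12 of the 24 were higher and 1 was lower, against 20% of all tested genes called in each direction and 40.1% in either. In GSK 19 were higher and 3 lower, against 40.0% and 35.7% of all genes, or 75.7% in either direction. In COMBO 20 were higher and 4 lower, against 43.3% and 39.2% of all genes, or 82.5% in either direction. The median log2 fold change of the 24 was 0.56 in GDC, 1.11 in GSK and 1.64 in COMBO, while that of all tested genes was 0.016, 0.058 and 0.054. Of the 24, 7 had no DMSO or GDC library over the filter's minimum of 0.705 CPM and were tested because of their GSK and COMBO libraries, where they are high: KLK1, KLK12, MUC6, PAEP, PATE2, SCGB2A1 and TGM4. Their calls are therefore no support for a direction. Of the other 17, GDC had 12 higher and 1 lower, GSK had 13 higher and 3 lower, and COMBO had 13 higher and 4 lower, with medians of 0.53, 0.95 and 1.27. With no filter, 51 of the 54 had a read. Of these, 13 were then higher and 1 lower in GDC (10.7% and 19.1% of all 19935 genes), 18 and 3 in GSK (28.0% and 28.5%) and 22 and 4 in COMBO (33.5% and 29.7%). With the filter, COMBO against GDC gave 20 higher and 4 lower (37.9% and 38.0% of all genes, 76.0% in either direction), and COMBO against GSK gave 10 higher and 3 lower (19.0% and 26.9%, 45.9% in either direction). The change with both agents departed from the 2 single changes added, on the log2 scale, in 8 of the 24, with 0 upward and 8 downward, against 4.86% and 16.5% of all genes, or 21.4% in either direction.

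The kallikreins KLK2, KLK3 and KLK4, enzymes that cut semenogelins, rose with either inhibitor and stood highest with both. Of the 13 proteases listed, 6 were tested, of which 4 were higher in GDC, 5 in GSK and 6 in COMBO, and 0 were lower. Without KLK12 these were 4, 4 and 5 of 5. Of all tested genes 40.1%, 75.7% and 82.5% were called in either direction in GDC, GSK and COMBO. KLK3 stood at 539 to 637 CPM in DMSO and 1091 to 1211 in GDC, against 1224 to 1454 in GSK and 1694 to 2009 in COMBO, with no overlap between any 2 arms. Its log2 fold change against DMSO was 0.95 ± 0.0687 in GDC, 1.14 ± 0.0690 in GSK and 1.63 ± 0.0695 in COMBO (SE; adjusted p = 4.85e-09, 9.16e-12 and 1.60e-14, edgeR). KLK2, which activates KLK3, averaged 51.0 ± 3.08 CPM with vehicle, 87.5 ± 10.8 with GDC-0941, 129 ± 17.2 with GSK126 and 160 ± 15.6 with both (SD, n = 3). KLK4, a further prostatic kallikrein, averaged 38.1 ± 2.13, 60.9 ± 2.39, 81.5 ± 5.55 and 119 ± 4.02 CPM in the same order. For KLK3 and KLK4 COMBO was above GSK by 0.49 and 0.55 on the log2 scale (adjusted p = 7.34e-06 and 1.14e-07, edgeR), the reverse of the order of the semenogelin levels in these arms. The kallikreins are a family of paralogs, so reads could be split between them.

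KLK12, one of the 7 that entered through its GSK and COMBO libraries, had few reads. It had 1, 2 and 1 counts in DMSO and 1, 2 and 1 in GDC, against 5, 12 and 10 in GSK and 10, 22 and 6 in COMBO, with log2 fold changes of 3.62 and 3.43 in those arms, which were 2.76 and 2.60 without DMSO C. KLK15 was called in GSK at 0.49 (adjusted p = 0.0340) and in COMBO at 1.04, but the GSK call was lost in 10 of 18 alternative analyses (DESeq2, no filter, and without any 1 of DMSO A or C, GDC A, B or C, GSK A or C, or COMBO C; down to 0.30, adjusted p = 0.241 without GSK C). MME, a membrane metallopeptidase of prostate epithelium, took another course: it rose in GDC (log2 fold change 0.59), stood at 0.041 in GSK with an adjusted p of 0.384 (edgeR; 0.19, adjusted p = 0.000149 with library totals), and rose by 0.17 in COMBO.

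Among the protease inhibitors listed, which need not act on the proteases above, 2 of 7 could be tested and both were higher in all 3 treated arms. The shares of all tested genes called in either direction were 40.1% in GDC, 75.7% in GSK and 82.5% in COMBO. SLPI, an inhibitor of leukocyte elastase whose gene is also the nearest counted neighbour of SEMG2, stood at 11.3 to 14.1 CPM in DMSO and 16.2 to 18.6 in GDC. It stood at 247 to 263 CPM in GSK and 246 to 256 in COMBO. Its log2 fold change was 0.37 in GDC, 4.27 in GSK and 4.25 in COMBO, and COMBO differed from GSK by -0.027 (SE 0.0506, adjusted p = 0.686, edgeR), where both semenogelins were lower. CST3 (cystatin C) rose by 0.27, 0.82 and 0.61, the first of which did not pass without DMSO A, DMSO C or GDC C (adjusted p = 0.0764, 0.0618 and 0.0983, edgeR). SERPINA5, the protein C inhibitor that semenogelins bind in semen, had at most 2 counts in any library and was not tested.

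The crosslinking and coat partners were mixed. TGM4 was low throughout, at 0.302 ± 0.0219 CPM in DMSO and 0.533 ± 0.0828 in GDC, against 1.44 ± 0.373 with GSK126 and 1.42 ± 0.259 with both (SD, n = 3). The log2 fold change was 2.19 in GSK and 2.22 in COMBO, the arms through which it passed the filter, while its GDC value of 0.82 did not pass (adjusted p = 0.114, edgeR). FN1 (fibronectin) rose from 280 ± 16.7 CPM in DMSO to 472 ± 36.1 with GDC-0941, 1887 ± 278 with GSK126 and 2680.0 ± 173 with both (SD, n = 3). CLU (clusterin), a chaperone abundant in semen, fell by 0.44 in GDC and rose by 0.40 in GSK on the log2 scale. In COMBO its value was -0.16 (adjusted p = 0.0110, edgeR), which was 0.048 with library totals and did not pass without DMSO B or COMBO A (both -0.13, adjusted p = 0.0572 and 0.0562). EPPIN, counted under its older symbol SPINLW1, had at most 1 count per library, and LTF (lactoferrin) had 17 pooled counts in DMSO, 13 in GSK and 14 in COMBO. Scaled for depth, the LTF ratio to DMSO was 1.58 in GSK (95% counting interval 0.704 to 3.44) and 1.06 in COMBO (0.486 to 2.29). PIP, the prolactin-induced protein of seminal fluid, had 0 counts in each DMSO and GDC library. Its GSK libraries held 3, 1 and 5 counts, its COMBO libraries 19, 8 and 7. With a floor of 3 pooled counts in place of 0 in DMSO, the ratio was 6.18 in GSK and 14.6 in COMBO. Counting error in the few treated reads is not covered by these values.

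Of 28 other seminal plasma proteins, 13 were tested, with 5 higher and 0 lower in GDC, 9 higher and 3 lower in GSK and 10 higher and 3 lower in COMBO. Without the 5 that entered through GSK and COMBO, 8 remained, with 5 and 0, 5 and 3, and 5 and 3. Calls in either direction took in 40.1% of all tested genes in GDC, 75.7% in GSK and 82.5% in COMBO. ACPP (prostatic acid phosphatase, now ACP3) stood at 26.0 to 29.7 CPM in DMSO and 50.6 to 56.9 in GDC, against 225 to 253 in GSK and 421 to 442 in COMBO, with log2 fold changes of 0.94, 3.10 and 3.93. MUC6, a gel-forming mucin made by the seminal vesicle, averaged 0.211 ± 0.101 CPM in DMSO and 0.579 ± 0.141 in GDC. It averaged 6.53 ± 3.30 in GSK and 6.44 ± 1.95 in COMBO (SD, n = 3), log2 fold changes of 4.71 and 4.64, or 5.40 and 5.35 without DMSO C. SCGB2A1 (mammaglobin B), a secretoglobin at 0.207 CPM in DMSO, had log2 fold changes of 2.44 in GSK and 2.87 in COMBO. Both genes passed the filter through those arms. The members that fell in both GSK126 arms were MSMB, DPP4 and SORD. MSMB, the beta-microseminoprotein of prostatic fluid, fell by 0.81 in GSK and by 1.09 in COMBO, and DPP4, a membrane peptidase that removes dipeptides from the start of peptides, by 0.84 and 0.75 on the log2 scale. SORD, the sorbitol dehydrogenase, fell by 0.21 and 0.56, but with library totals the GSK value was -0.05 (adjusted p = 0.200, edgeR).

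**Figure D4:**
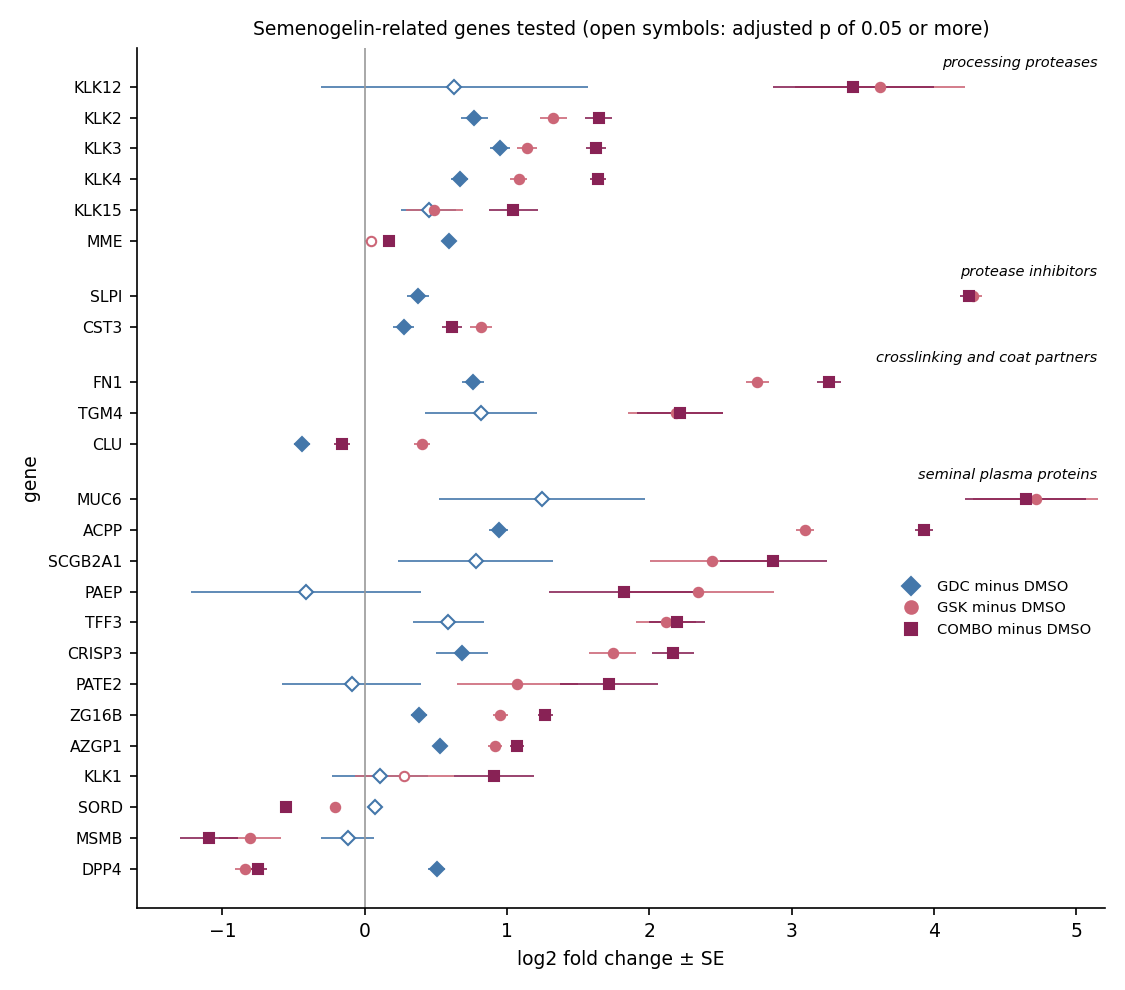
Log2 fold change against DMSO (edgeR, error bars SE) of the 24 semenogelin-related genes tested, grouped by role, in GDC, GSK and COMBO; open symbols did not pass an adjusted p of 0.05. The largest values are those of SLPI (4.27 in GSK, 4.25 in COMBO) and MUC6 (4.71 and 4.64), while MSMB, DPP4 and SORD lie under 0 in both GSK126 arms.

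The pair sits in a stretch of chromosome 20 that holds many small whey-acidic-protein (WFDC) inhibitors, and its neighbours were examined next. Within 500 kb of the span of the pair 31 other genes were counted and 10 were tested. In GDC 3 of the 10 were higher and 1 lower, in GSK 5 were higher and 2 lower, and in COMBO 6 were higher and 2 lower, close to the shares of all genes given above in either direction (40.1%, 75.7% and 82.5%). The GDC calls include PIGT (0.13, adjusted p = 0.0439, edgeR), whose call was lost in 16 of 18 alternative analyses (adjusted p up to 0.472), each of the 12 that leave out a library among them. Without MATN4, which passed the filter through GSK and COMBO, 9 neighbours gave 4 higher and 2 lower in GSK and 5 and 2 in COMBO. The median log2 fold changes in GDC, GSK and COMBO were 0.050, 0.51 and 0.66 for all 10. For the 9 without MATN4 they were -0.0024, 0.50 and 0.46. COMBO against GDC gave 5 higher and 3 lower, and COMBO against GSK 1 higher and 2 lower. SLPI is in both sets, and of the untested genes PI3, SPINT3, WFDC2 and SPINLW1 are as well.

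On the side of lower coordinates the 4 nearest counted genes were PI3 (elafin) at 30.5 kb, WFDC12 at 82.6 kb, WFDC5 at 91.9 kb and the potassium channel subunit KCNS1 at 106 kb, and all had too few reads to test. WFDC12, a WAP-domain inhibitor, had 0, 0 and 0 counts in DMSO and 1, 0 and 2 in GDC, against 6, 15 and 8 in GSK and 11, 27 and 8 in COMBO. With a floor of 3 pooled counts in place of 0 in DMSO, the ratio was 19.9 in GSK and 19.8 in COMBO, counting error in the treated reads not covered. PI3, the nearest gene on that side, had 0, 0 and 3 counts in DMSO, 0, 0 and 3 in GSK and 2, 2 and 0 in COMBO. WFDC5 had at most 1 count per library and KCNS1 at most 3.

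On the other side the nearest were SLPI at 27.8 kb, described above, MATN4 at 69.0 kb, RBPJL at 82.4 kb and SDC4 at 101 kb. SDC4 (syndecan 4), a cell-surface proteoglycan, stood at 75.5 to 76.9 CPM in DMSO and 98.3 to 99.9 in GDC, against 220 to 232 in GSK and 264 to 287 in COMBO. Its log2 fold changes were 0.37, 1.56 and 1.86 (adjusted p = 4.07e-06, 2.96e-16 and 3.41e-18, edgeR). MATN4, a matrilin, stood at 1.34 in GSK and 1.64 in COMBO on the log2 scale, at under 1.2 CPM in each library, or at 1.95 and 2.27 without DMSO B. The GSK call was lost with DESeq2 and without DMSO A, DMSO C or GSK C (down to 0.71, adjusted p = 0.310), the COMBO call without DMSO C (1.14, adjusted p = 0.0530, edgeR). It overlaps RBPJL on the other strand, and the use of strand in counting is not given in the sources used here, so reads of the 2 cannot be told apart. RBPJL, a transcription factor of the RBPJ family, had 1 pooled count in DMSO, 9 in GSK and 14 in COMBO, a ratio of 18.5 (95% counting interval 2.57 to 813) and 18.1 (2.75 to 765).

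**Figure D5:**
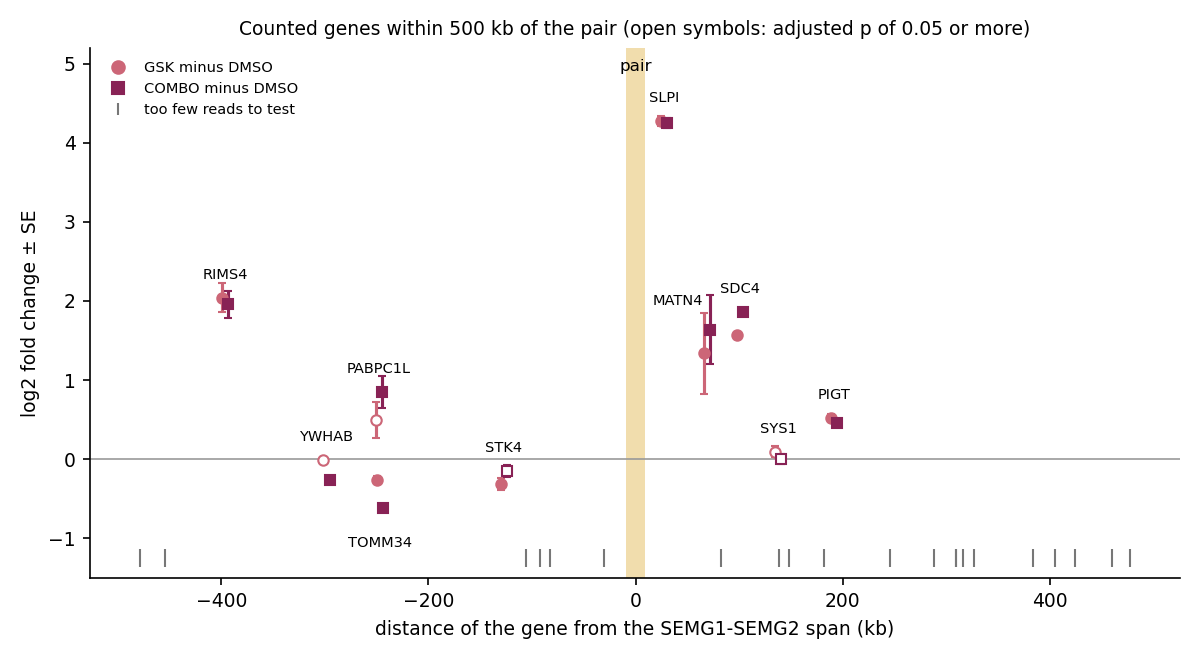
Log2 fold change against DMSO (edgeR, error bars SE) of the counted genes within 500 kb of SEMG1 and SEMG2, by distance from the pair in kb; GSK and COMBO points of a gene are drawn slightly apart, open symbols did not pass an adjusted p of 0.05, and ticks at the bottom are genes with too few reads to test. SLPI (4.27 and 4.25) and SDC4 (1.56 and 1.86) on one side and RIMS4 (2.04 and 1.96) on the other lie highest, while TOMM34 lies at -0.27 and -0.62.

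Values above and below 0 both occurred along the region. RIMS4, a synaptic protein 396 kb away, rose by 2.04 in GSK and 1.96 in COMBO, and PIGT, of the GPI transamidase, by 0.52 and 0.46. STK4, a Hippo pathway kinase at 127 kb, fell by 0.31 in GSK and stood at -0.15 in COMBO (adjusted p = 0.0732, edgeR), where it passed in 5 alternative analyses, the lowest adjusted p being 0.00311 with no filter, and was 0.059 with library totals. TOMM34, a cytosolic co-chaperone, fell by 0.27 and 0.62, and YWHAB, a scaffold protein, stood at -0.01 in GSK (adjusted p = 0.907, edgeR; 0.15, adjusted p = 0.000882 with library totals) and fell by 0.27 in COMBO. TOMM34 overlaps PABPC1L on the other strand, so reads of these 2 cannot be told apart either. PABPC1L stood at 0.50 in GSK (adjusted p = 0.0543), which passed in 8 of 18 alternative analyses. In COMBO it rose by 0.85 (adjusted p = 0.000778, edgeR). SYS1 passed in no arm against DMSO. The falls of STK4 and TOMM34 in GSK and of YWHAB in COMBO did not pass with library totals in place of TMM (adjusted p = 0.0715, 0.0627 and 0.118, edgeR). With that scaling the 10 tested neighbours gave 8 higher and 0 lower in GSK, and 7 higher and 1 lower in COMBO, where 49.2% and 27.7% of all genes were higher and lower in GSK and 52.7% and 30.6% in COMBO. In a wider list of 27 genes of the WFDC region 9 were tested, with 3 higher and 0 lower in GDC, 5 higher and 2 lower in GSK and 6 higher and 1 lower in COMBO, so 3, 7 and 7 of 9 were called beside 40.1%, 75.7% and 82.5% of all genes. WFDC3, a member of that list beyond the 500 kb at 0.224 CPM in DMSO, had log2 fold changes of 1.54 in GSK and 2.32 in COMBO. It passed the filter through COMBO and GSK C, and its GSK call was lost without GSK C (1.11, adjusted p = 0.0783, edgeR).

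Markers of cell types were read beside the pair, since semenogelins are known from the seminal vesicle. The labelled cell type was checked against its markers, and all 11 prostate luminal genes had enough reads to be tested. Their summed level was 4058 to 4230 CPM in DMSO and 5920.0 to 6131 in GDC, against 5087 to 5531 in GSK and 6520.3 to 7010.2 in COMBO. Members did not all follow that sum. Relative to vehicle, 8 members were called higher and 1 lower after GDC-0941 alone. After GSK126 alone the calls were 7 and 2, and after both agents 9 and 1. HOXB13 stood at 445 to 512 CPM with vehicle and at 510 to 531 with GDC-0941. Its level was 379 to 409 CPM with GSK126 and 296 to 309 with both agents. The 9 seminal vesicle markers summed to 0.947 to 1.47 CPM in DMSO and 1.33 to 2.22 in GDC, against 7.11 to 12.9 in GSK and 7.32 to 11.4 in COMBO. Of these 9, MUC6 and PAX2 were tested, both having passed the filter through GSK and COMBO. Most of the sum in those 2 arms was MUC6 and PAX2. MUC6 alone stood at 4.83, 4.42 and 10.3 CPM in GSK A, B and C, and at 7.25, 4.21 and 7.86 in COMBO. PAX2, at 0.395 CPM in DMSO, had log2 fold changes of 1.99 in GSK and 2.42 in COMBO. The other 7 had at most 10 counts in any library. PAX8 had 12 pooled counts in DMSO, 7 in GSK and 10 in COMBO, and AKR1B1 had 9, 9 and 5. Scaled for depth, the PAX8 ratio to DMSO was 1.20 in GSK (95% counting interval 0.401 to 3.31) and 1.08 in COMBO (0.417 to 2.72). For AKR1B1 it was 2.06 (0.725 to 5.86) and 0.718 (0.189 to 2.39). Basal markers (1 of 5 tested) summed to 23.8 to 24.1 CPM in DMSO and 19.1 to 22.8 in GDC, against 29.9 to 44.2 in GSK and 36.3 to 42.6 in COMBO, almost all of it DST, and KRT5 had at most 1 count per library. Fibroblast markers (2 of 5 tested) summed to 10.3 to 11.7 CPM in DMSO and 11.1 to 14.4 in GDC, against 26.1 to 38.6 in GSK and 29.4 to 48.4 in COMBO. Almost all of that sum was COL1A1, with DCN and LUM at 0 in DMSO and GDC. Leukocyte markers (1 of 4 tested) summed to 4.84 to 5.69 CPM in DMSO and 5.57 to 6.40 in GDC, against 6.92 to 9.56 in GSK and 7.42 to 9.57 in COMBO. Almost all of that sum was CD68, with CD3E at 0 in each library. The part of these lists in the levels of SEMG1 and SEMG2 was not tested.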

How the data were processed

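PolyA RNA-seq of C4.2B cells gave 12 libraries, 3 in each of DMSO, GDC, GSK and COMBO. The authors aligned reads to hg38 with STAR and counted them per gene symbol with HTSeq, and the deposited count values are whole reads, not normalized. Tool versions, annotation, read length and strand setting are not given in the sources used here. The 5 HTSeq summary lines (23.7% to 33.7% of reads) were left out. A deposited table that the authors made by dividing counts by DESeq2 size factors was not used here, and 0 columns of per-sample values mapped to no library.

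Gene counts per library were 8785218 to 44437751. Replicates differed by more than sampling noise (chi-square per degree of freedom 1.80 to 6.49), so each library counted once. Genes kept by filterByExpr (14189) were fitted with edgeR 4.0.16 in R 4.3.3 (TMM, quasi-likelihood, all 12 libraries, arm as the only term, common biological coefficient of variation 0.0499), with two-sided tests, Benjamini-Hochberg adjustment and calls at an adjusted p under 0.05. The fit was tested on simulated data. SEs are the log2 fold change over the square root of F. SEMG1 and SEMG2 were given no test. Levels are TMM-scaled CPM, ratios use pooled counts, and intervals and the floor of 3 counts cover counting error only. Gene models, lengths and shared windows came from GENCODE 44 (Biopython 1.88 for alignment) and promoter windows from RefSeq on GRCh38.p14.

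The members and all gene lists were chosen with earlier results of these data known. Named genes were SEMG1 and SEMG2, the 5 genes most like each, the main known partners (KLK3, KLK2, KLK4, TGM4, SERPINA5, EPPIN, LTF, FN1, CLU, MSMB and ACPP), the 3 called members of each partner list that moved most on the log2 scale in GSK or COMBO, the 4 nearest counted genes on each side, EZH2, and the 5 highest genes of those with at most 10 DMSO reads. Other genes, such as KLK15, MME, PIP, DPP4, SORD, RIMS4 and WFDC3, were named after their values were seen. Alternatives were DESeq2 1.42.0, its size factors or library totals in edgeR, no filter, a replicate block, the compared arms only, each library left out, coding length, counts per transcript length, Spearman correlation and a prior count of 0.25.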

Additional observations from a re-analysis of the deposited data

Results flagged for a closer look

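The 4 arms allow a test of whether both agents together gave the added effects of each alone, on the log2 scale (COMBO minus GDC minus GSK plus DMSO, edgeR, adjusted over 14189 genes). Of all tested genes 21.4% departed, 4.86% upward and 16.5% downward, with a median over all genes of -0.063. Of the 24 tested partners 8 departed, and of the 10 tested neighbours 2, of which SLPI is in both sets. With EZH2 these are the 10 genes given here, all downward, so that the change with both agents was lower than the 2 single changes added. The genes picked for a course like that of SEMG1 or SEMG2, or for their level in a treated arm, are not counted, since the same libraries chose them.

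Among the processing proteases the departure was -0.46 for KLK3 (adjusted p = 0.00156), -0.45 for KLK2 (adjusted p = 0.0168) and -0.46 for MME (adjusted p = 1.27e-05, edgeR). For the protease inhibitors it was -0.40 for SLPI (adjusted p = 0.00412) and -0.48 for CST3 (adjusted p = 0.00265, edgeR). For the seminal plasma proteins it was -0.37 for AZGP1, a zinc-binding glycoprotein of prostatic fluid (adjusted p = 0.000760), -0.41 for DPP4 (adjusted p = 0.00253) and -0.42 for SORD (adjusted p = 1.48e-05, edgeR). The neighbour TOMM34 gave -0.35 (adjusted p = 0.00227) and EZH2 gave -0.33 (adjusted p = 0.00727, edgeR). TOMM34 overlaps PABPC1L on the other strand, and reads of these genes cannot be told apart.

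Over 17 alternative analyses each, the call was lost in 5 for EZH2 (no filter, and without DMSO C, GDC A, GSK B or COMBO A; adjusted p up to 0.0915), in 6 for KLK2 (without DMSO A, DMSO C, GDC A, GDC B, GSK A or COMBO C; adjusted p up to 0.140) and in 1 for SLPI (without GDC A, -0.28, adjusted p = 0.0652). For the other 7 genes it was lost in 0 of the 17. KLK3, KLK2 and SLPI were above DMSO in all 3 libraries of each treated arm, so a value under 0 here is a smaller joint rise, not a fall.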

How the results depend on the processing

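Counts of called partners kept within 1.5 times of their reported value in every alternative. For the neighbours this held except without the filter on low counts, where COMBO against GSK gave 5 calls in place of 3. With library totals the SEMG2 level in COMBO was 10.5 CPM. Per transcript length the SEMG2 share was 32.2% in GSK and 41.8% in COMBO. With library totals the all-gene median of the log2 values against DMSO shifted by 0.034 in GDC, 0.15 in GSK and 0.21 in COMBO, and calls against DMSO were then higher in 58.5%, 64.0% and 63.3% of cases (49.98%, 52.8% and 52.5% with TMM). The share was 62.8% for COMBO against GDC (49.9% with TMM) and 52.3% against GSK (41.4% with TMM). That setting reversed CLU in COMBO against DMSO (0.048, adjusted p = 0.420) and YWHAB in GSK against DMSO (0.15, adjusted p = 0.000882) and in COMBO against GDC (0.058, adjusted p = 0.148, edgeR).

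Leaving out each library in turn gave a ratio to DMSO of 62.7 to 85.1 for SEMG1 in GSK and 28.3 to 38.4 in COMBO. For SEMG2 it gave 215 to 398 in GSK, 147 to 272 in COMBO and 4.57 to 8.45 in GDC, the highest values being those without DMSO C, which holds 3 of the 4 vehicle reads. The SEMG2 share stayed at 35.8% to 37.9% in GSK and 45.6% to 47.4% in COMBO. The genes most like each member depended on the scale: with Spearman's rho 0 of the 5 stayed for either, and with a prior count of 0.25, 3 stayed for SEMG1 and 0 for SEMG2.

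Replicate letters did not pair the libraries (same-letter correlations of deviations -0.0839 to 0.188, over 0.1 in 2 of 18 pairs). With the replicate block, 22 partners were called in GSK and 24 in COMBO, as without it, and 14 in GDC in place of 13. The cause of these differences was not tested. Depth limits the DMSO and GDC levels of both genes, which rest on 4 to 24 reads an arm.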
